A study of Mus musculus with 11 samples.

Results

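Macrophages of the Ly6Chigh/CX3CR1low class, taken from the mouse heart at day 3 after cryoinjury, were set against macrophages of the Ly6Clow/CX3CR1high class from hearts with no injury (day 0), by their content of microRNA (miRNA). The arrays were chosen by the day and surface class in their titles, which gave 3 arrays at day 3 and 2 at day 0, or 5 of the 11 arrays of the series. All animals were Cx3cr1GFP/+ knock-in mice aged 2 to 3 months, which carry GFP in place of one Cx3cr1 allele, and the macrophages were isolated as GFP-positive cells. The allele marks any cell that uses the Cx3cr1 locus and leaves a single working copy of the receptor gene in both groups. The day 3 animals had received a cryoinjury, in which part of the heart muscle is killed by cold to model an infarct, and the day 0 animals had no surgery. Injury, surgery, day and surface class therefore differed together and cannot be told apart. Each array received 100 ng of total RNA labelled with Cy3, and the labels call the samples independent biological replicates without saying how many hearts went into each. In such bulk samples, fewer cells of a type and less RNA per cell cannot be told apart.

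miRNAs are short RNAs cut from hairpin precursors. Loaded into Argonaute, they repress messenger RNAs that pair with their seed, the stretch near the 5′ end, so that miRNAs with 1 seed share most predicted targets. Many lie in clusters that are transcribed together, and others lie in introns of protein-coding genes. Ly6Chigh macrophages of the early infarct derive mostly from blood monocytes and are known for phagocytosis and inflammatory mediators, whereas most Ly6Clow macrophages of the resting heart are resident cells.

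The sequences that carry the comparison are given first, as RefSeq lists the mature miRNAs of mouse (assembly GRCm38.p6), written 5′ to 3′ with the seed, bases 2 to 8, in capitals. A RefSeq sequence was matched to 297 of the 369 miRNAs tested. The first set is shown because members that share a seed moved together, all of them lower at day 3 relative to the rest of the array. The miR-99 pair has the seed ACCCGUA and the miR-125 pair the seed CCCUGAG.
miR-99a-5p: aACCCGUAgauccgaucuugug
miR-99b-5p: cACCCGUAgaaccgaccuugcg
miR-125a-5p: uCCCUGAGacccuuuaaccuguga
miR-125b-5p: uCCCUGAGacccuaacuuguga
The second set is shown because members that share a seed moved apart. These let-7 miRNAs all have the seed GAGGUAG, and let-7e-5p and let-7i-5p differ at 5 of 22 positions outside it.
let-7e-5p: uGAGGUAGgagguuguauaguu
let-7c-5p: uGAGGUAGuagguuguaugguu
let-7g-5p: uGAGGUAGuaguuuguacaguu
let-7i-5p: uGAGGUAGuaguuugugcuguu
The third set holds miRNAs that were higher at day 3. miR-93-5p and miR-20a-5p share the seed AAAGUGC, and the others have different seeds.
miR-93-5p: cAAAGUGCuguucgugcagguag
miR-20a-5p: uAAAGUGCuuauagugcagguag
miR-25-3p: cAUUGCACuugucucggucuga
miR-15b-5p: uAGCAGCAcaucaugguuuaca
miR-21a-5p: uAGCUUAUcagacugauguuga
miR-10a-5p: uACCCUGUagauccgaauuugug
miR-142a-3p: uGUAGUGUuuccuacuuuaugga
The last set holds miRNAs that were lower at day 3 and share their seed with none of the above.
miR-146a-5p: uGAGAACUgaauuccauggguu
miR-511-3p: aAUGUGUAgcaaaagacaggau
miR-30a-5p: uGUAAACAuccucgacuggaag

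The day 3 arrays were brighter than the day 0 arrays. Taken over the 126 miRNAs that all 11 arrays detected, the 75th percentile of signal was 163 and 55.7 scanner units at day 0 and 962, 805 and 1607 at day 3, and the scanner called 173 and 151 miRNAs detected at day 0 against 301 to 338 at day 3. The dmr control features of the array differed less, with a geometric mean of 2088 to 3025 units at day 0 and 3061 to 4105 at day 3. Why the miRNA signal differed more than these controls was not tested. All 5 arrays detected 132 of the 1247 miRNAs, and 891 were detected on none of them. The day 0 replicates stood apart from each other. Over miRNAs detected on both arrays of a pair, their median absolute log2 difference was 1.18, against 0.34 to 0.43 between day 3 arrays. The rank correlation over the 132 miRNAs was 0.79 between the day 0 arrays, 0.98 to 0.99 between day 3 arrays and 0.67 to 0.84 between groups, lowest for day 0 replicate 2. The part that brightness and day 0 replicate 2 play in a result was not tested beyond the values given here. The results are given in 3 forms. The first is the scaled level, log2 of the signal divided by the array's 75th percentile. The second is the within-array rank, from 0 for the dimmest to 100 for the brightest of the 132. The third is the ratio of a pair of miRNAs on 1 array, which no scaling enters.

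In scaled level, 204 of the 369 miRNAs tested (55.3%) passed at an adjusted p under 0.05 (limma moderated test across all groups, Benjamini-Hochberg), 60 of them higher (16.3%) and 144 lower (39.0%) at day 3. Of the lower calls, 80 (21.7% of those tested) were miRNAs undetected on both day 0 arrays, where scaled background is higher on dim arrays, and these were not read as falls. Among the 132 miRNAs detected on all 5 arrays, 74 passed (56.1%), 22 higher (16.7%) and 52 lower (39.4%). The median change of the 132 was -0.79 (log2), so that a miRNA in step with the rest reads as lower. This split follows the scaling. Among the 132 it was 29 higher and 42 lower when arrays were scaled to the median, 67 higher and 3 lower with the 75th percentile over all miRNAs, 94 higher and 2 lower when scaled to the labelling controls (dmr features), and 105 higher and 0 lower without scaling, where the median changes were -0.27, 1.75, 2.19 and 2.70. In the authors' quantile-normalized table it was 23 and 50, with a median change of -0.66. Over the 369, median scaling gave 86 higher and 116 lower calls, quantile normalization 111 and 71, and the log2 values of the authors 85 and 86. The percentile of all 1247 miRNAs gave 189 and 4, the dmr controls 235 and 3, and unscaled signals 250 and 1. Without day 0 replicate 2, 128 of the 369 were called, 62 higher and 66 lower.

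Named miRNAs that were higher mostly kept their call under the other scalings, and those that were lower mostly lost it. The scalings with median changes of 1.75, 2.19 and 2.70 raise the readings in common. Under them higher calls are easily kept and lower calls easily lost, so the counts that follow do not measure how firm the rises are. Of the 36 named below that were called higher, 34 stayed called in that direction under all 6 other scalings, miR-19b-3p and miR-26b-5p being the exceptions. Of the 21 called lower, miR-328-3p alone stayed called under all 6. Falls in this account are therefore falls relative to the other miRNAs of an array. In unscaled scanner units, 111 of the 132 (84.1%) had all day 3 arrays above both day 0 arrays, and 1 (0.758%), miR-125a-5p, had all of them below. With the array's brightness as a covariate 68 of the 369 were called, 53 higher and 15 lower, and 10 of the 36 higher and 9 of the 21 lower named miRNAs kept their call. The changes of miR-106b-5p, miR-221-3p, let-7f-5p and miR-223-3p, given below, then read 0.13, 0.19, 0.25 and 0.32 (limma adjusted p = 0.961, 0.933, 0.897 and 0.846). With the floor at the highest detection limit the calls of miR-100-5p, miR-3473b, miR-20b-5p, miR-19b-3p, miR-26b-5p and miR-451a were lost, besides those named below. Leaving out each of the 5 arrays in turn, 21 of the 36 and 17 of the 21 kept it throughout.

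Within-array rank, fitted on the 5 arrays alone, called 22 of the 132 miRNAs (16.7%), 12 higher (9.09%) and 10 lower (7.58%). Of the 132, 92 (69.7%) had groups without overlap in scaled level and 67 (50.8%) in rank. Both readouts called 17 in the same direction (12.9%), of which 7 were higher (5.3%) and 10 lower (7.58%). The higher ones were miR-10a-5p, miR-93-5p, miR-25-3p, miR-15b-5p, let-7i-5p, miR-21a-5p and let-7g-5p. The lower ones were miR-146a-5p, miR-125a-5p, miR-669p-3p, let-7e-5p, miR-709, miR-99a-5p, miR-511-3p, miR-5107-5p, miR-125b-5p and miR-3473b. The rank test has 3 residual degrees of freedom, and its calls depend on single arrays. It called 88 miRNAs without day 0 replicate 1 and 49 without day 0 replicate 2, but 6, 3 and 0 without day 3 replicates 1, 2 and 3.

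**Figure D1:**
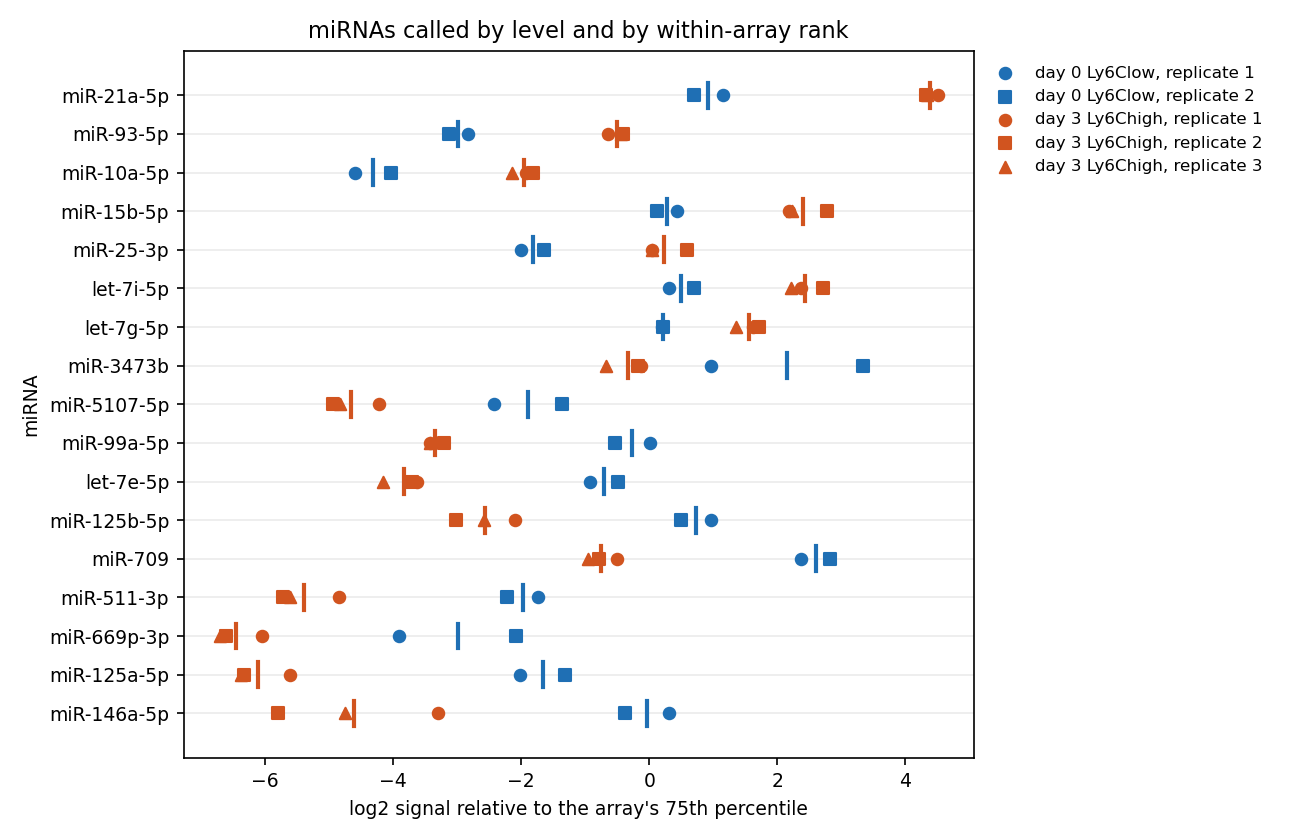
Scaled log2 signal (x axis, relative to the array's 75th percentile) of the 17 miRNAs called both by level and by rank (y axis). Each symbol is 1 array, blue for day 0 Ly6Clow (2 arrays) and orange for day 3 Ly6Chigh (3 arrays), and short bars are group means. The orange symbols of miR-146a-5p run from -5.80 to -3.30 and the blue from -0.38 to 0.31, and the groups overlap for none of the 17.

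**Figure D2:**
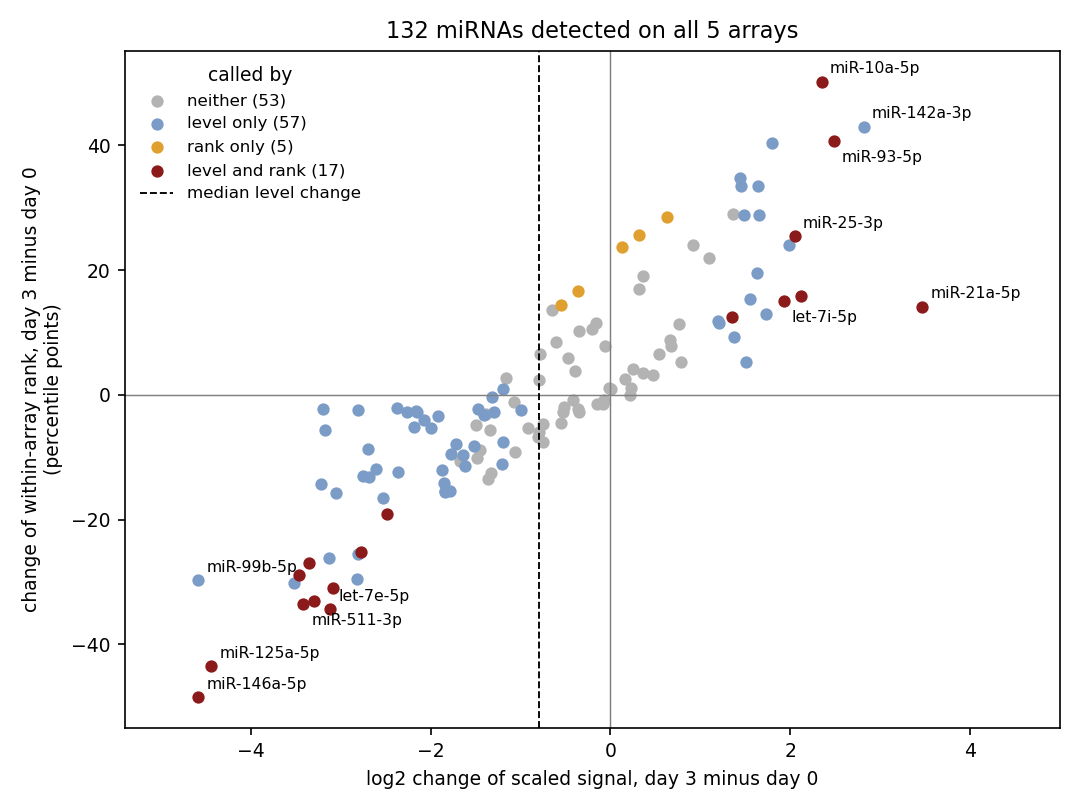
Change of scaled level (x axis, log2, day 3 minus day 0) against change of within-array rank (y axis, percentile points) of the 132 miRNAs detected on all 5 arrays, each a point coloured by the readouts that called it. The dashed line is the median level change, -0.79. miR-10a-5p has the largest rise in rank (50.3 points) and miR-146a-5p the largest fall (-48.5 points) among those called.

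miR-21a-5p, which is induced by injury and Toll-like receptor signals and represses Pdcd4, rose the most in scaled level among the miRNAs detected on all 5 arrays. Its signal was 361 and 90.7 scanner units at day 0 and 21896, 16150 and 32517 at day 3, and its share of the array's summed miRNA signal was 1.38% and 0.492% against 10.6%, 9.11% and 11.3%. All day 3 arrays lay far above both day 0 arrays. Its scaled level was 1.14 and 0.70 at day 0 and 4.51, 4.33 and 4.34 at day 3, a rise of 3.47 ± 0.41 (log2, SE; limma adjusted p = 0.000149), and its rank rose from 88.5 and 81.7 to 99.2 on every day 3 array (14.1 ± 3.1 points, limma adjusted p = 0.0485). The miRNA lies within the span of Vmp1 at chr11:86584120-86584141 (minus strand).

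miR-146a-5p, an NF-kappaB-induced repressor of Traf6 and Irak1, moved the other way. Its scaled level was 0.31 and -0.38 at day 0 and -3.30, -5.80 and -4.76 at day 3, so that the groups did not overlap, although the day 3 arrays were spread widely. The change was -4.59 ± 0.66 (limma adjusted p = 0.000357), and the rank fell from 80.2 and 71.8 to 43.5, 12.2 and 26.7 (limma adjusted p = 0.0426). In unscaled units the groups overlapped, with 203 and 42.9 at day 0 against 97.5, 14.4 and 59.3 at day 3, and its level call was lost under 3 scalings (the percentile of all miRNAs, the dmr controls and none), although the direction stayed. The log2 ratio of miR-142a-3p to miR-146a-5p was -2.39 and -2.99 at day 0 and 3.32, 5.41 and 5.42 at day 3. In scaled level both miRNAs parted without overlap and in opposite directions. The ratio therefore could not overlap, and only its size is read.

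miR-155-5p, which represses Socs1 and Inpp5d in activated macrophages, was undetected on both day 0 arrays and detected on all day 3 arrays, at 64.8, 25.5 and 71.8 scanner units. Set against the lowest signal called detected on each day 0 array, it was at least 2.68-fold higher (limma adjusted p = 0.0188), a call that did not survive leaving out day 0 replicate 1 or day 3 replicate 1, with limma adjusted p = 0.13 and 0.078. It was also lost with the floor at the highest detection limit (0.66, limma adjusted p = 0.191) and with brightness as a covariate (limma adjusted p = 0.084). Such bounds divide the mean scaled day 3 signal by that limit. Of the list of Toll-like receptor and NF-kappaB response miRNAs, 7 of 14 were tested, and miR-21a-5p and miR-155-5p were higher and miR-146a-5p lower. Of the 369, 16.3% were higher and 17.3% were lower and detected at day 0. The median change of the 7 was 1.18, the value of miR-132-3p, which was undetected at day 0, beside -0.79 over all 369. Only 2 of the 7, miR-21a-5p and miR-146a-5p, were detected on all 5 arrays, with a median change of -0.56.

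All 3 members of the miR-99b, let-7e and miR-125a cluster fell relative to the array. The cluster lies at chr17:17830194-17830876 within the span of Spaca6. These miRNAs are known from blood stem cells and myeloid cells, where miR-125 members repress inhibitors of signalling. miR-125a-5p read -2.02 and -1.32 at day 0 and -5.61, -6.34 and -6.38 at day 3, a fall of 4.44 on the log2 scale (change -4.44 ± 0.47, limma adjusted p = 7.44e-05). It was the only one of the 132 whose unscaled signal was lower on every day 3 array (19.7, 9.96 and 19.3 units) than on both day 0 arrays (40.4 and 22.3 units), though without scaling the adjusted p was 0.066. Its rank of 55.0 on both day 0 arrays fell to 13.7, 6.9 and 13.7 (limma adjusted p = 0.00355).

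miR-99b-5p read -2.56 and -3.15 at day 0 and -7.04, -7.54 and -7.75 at day 3 (change -4.59 ± 0.44, limma adjusted p = 4.27e-05). At day 3 its signal of 7.29, 4.32 and 7.44 units was close to the lowest signals called detected on those arrays, 2.34, 2.18 and 2.15 units. Its rank went from 42.7 and 19.8 to 1.5, 0.8 and 2.3, without overlap between groups, and did not pass (limma adjusted p = 0.0588). let-7e-5p, the third member, read -0.93 and -0.49 at day 0 and -3.62, -3.72 and -4.16 at day 3 (change -3.12 ± 0.42, limma adjusted p = 0.000281), and its rank fell from 70.2 and 68.7 to 35.1, 35.9 and 34.4. The rank of let-7e-5p was almost the same on all arrays of a group.

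Members of the paralogous clusters were lower in scaled level too. miR-99a-5p changed by -3.09 ± 0.40 (limma adjusted p = 0.000273), and its neighbour at chr16:77598940-77599738, let-7c-5p, by -1.19 ± 0.42 (limma adjusted p = 0.0311). let-7c-5p also comes from chromosome 15, and miR-125b-5p from chromosomes 9 and 16, copies that the array does not tell apart. let-7c-5p did not pass by rank (-7.5 points, limma adjusted p = 0.102) or with median scaling (-0.67, limma adjusted p = 0.229). The let-7c-5p call was lost without any 1 of 4 arrays (day 0 replicate 2 and day 3 replicates 1, 2 and 3, at -1.06 to -1.32). miR-125b-5p read 0.96 and 0.49 at day 0 and -2.10, -3.03 and -2.58 at day 3 (change -3.29 ± 0.43, limma adjusted p = 0.000273), and miR-100-5p, detected on 1 of 2 day 0 arrays, changed by -1.89 ± 0.49. let-7e-5p, miR-99a-5p, miR-125b-5p, let-7c-5p and miR-100-5p turned to a rise without scaling (0.37, 0.41, 0.20, 2.31 and 1.33), whereas miR-99b-5p and miR-125a-5p stayed lower (-1.09 and -0.95). Of the list, 9 of 15 on the array were tested and 7 were lower and none higher, beside 17.3% of the 369 that were lower and detected at day 0, with a median change of -3.09 beside -0.79 over all 369. All 6 that were detected on all 5 arrays were lower, beside 39.4% of the 132. In both pairs that share a seed, the cluster member on chromosome 17 fell further than its paralog. The log2 ratio of miR-99b-5p to miR-99a-5p was -2.57 and -2.62 at day 0 and -3.62, -4.33 and -4.33 at day 3, and that of miR-125a-5p to miR-125b-5p was -2.98 and -1.81 against -3.51, -3.31 and -3.80. Neither ratio overlapped between groups.

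The let-7 family, repressors of Lin28, Hmga2 and Ras that accumulate as cells mature, split in scaled level. Of the 8 members with the seed GAGGUAG detected on all 5 arrays, 3 were higher, 2 lower and 3 not called. Of the 132, 16.7% were higher and 39.4% lower. The changes of the 8 ran from -3.12 for let-7e-5p to 1.93 for let-7i-5p. let-7i-5p read 0.31 and 0.69 at day 0 and 2.36, 2.71 and 2.21 at day 3 (change 1.93 ± 0.40, limma adjusted p = 0.00332), and its rank rose from 79.4 and 80.9 to 94.7, 96.2 and 94.7. let-7g-5p rose by 1.36 ± 0.39 (limma adjusted p = 0.0116) and let-7f-5p by 1.37 ± 0.42 (limma adjusted p = 0.0159), the latter call lost without day 0 replicate 2 or day 3 replicate 1, at 1.07 and 1.28 with limma adjusted p = 0.071 and 0.056. miR-98-5p, of the same family but detected on 1 of 2 day 0 arrays, rose by 2.63 ± 0.47. let-7a-5p (0.37 ± 0.39), let-7d-5p (0.47 ± 0.40) and let-7b-5p (-1.07 ± 0.55) did not pass.

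The calls within the family depend on scaling, whereas a ratio of 2 members on 1 array does not. Without scaling let-7e-5p read 0.37 and let-7c-5p 2.31, the latter called higher (limma adjusted p = 0.00144). let-7i-5p and let-7e-5p are the extremes of the 8 changes, so the direction of their ratio was fixed by that choice and only its size is read. The log2 ratio of let-7i-5p to let-7e-5p was 1.24 and 1.19 on the day 0 arrays and 5.99, 6.43 and 6.37 on the day 3 arrays, a shift of 5.05. The day 0 arrays, which differed by 1.18 in the median miRNA, differed by little in this ratio. The ratio of let-7i-5p to let-7c-5p went from -1.94 and -1.78 to 1.20, 1.27 and 1.30, and that of let-7i-5p to let-7a-5p from -2.32 and -1.5 to -0.55, -0.16 and -0.34. let-7 sequences are close to each other, let-7e-5p and let-7a-5p differing at 1 position, and how far a probe also binds its relatives was not tested. The height of such a ratio depends on how well each miRNA labels and binds its probe, and only its shift between arrays is read here.

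**Figure D3:**
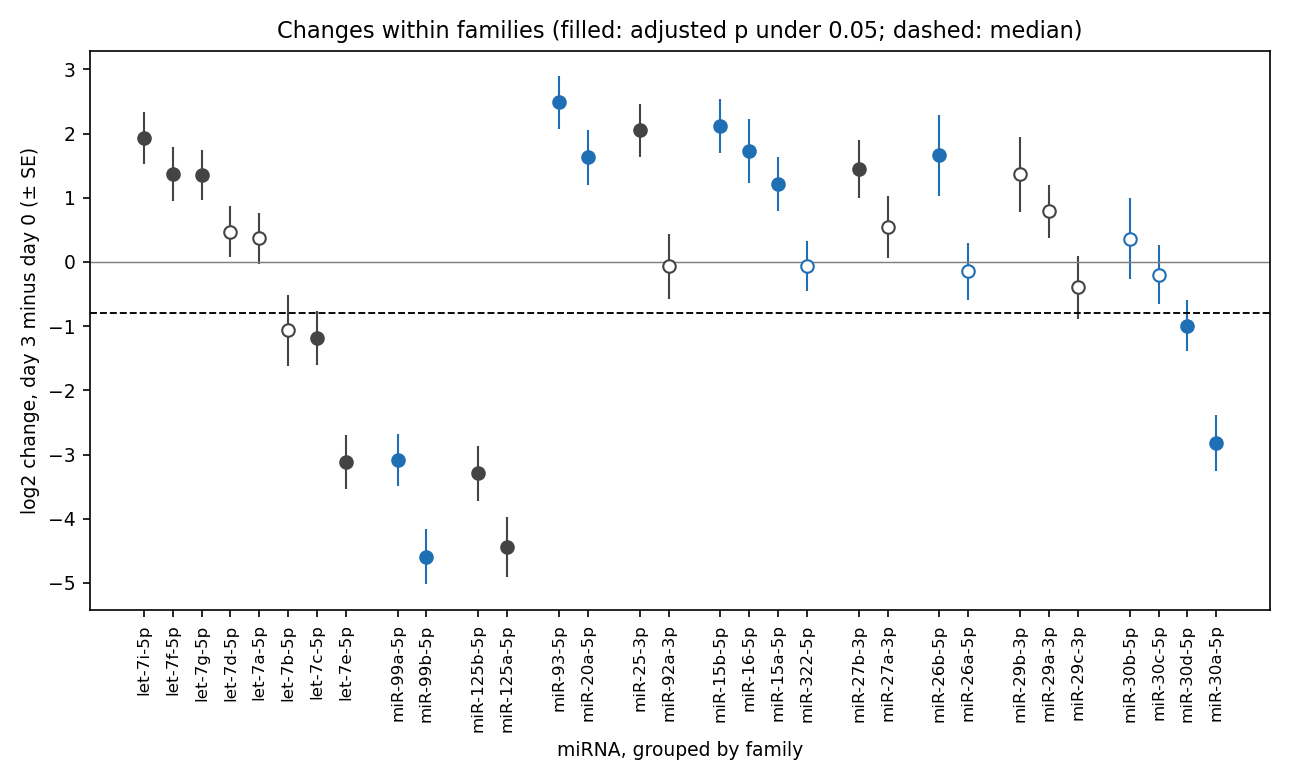
Log2 change of scaled level at day 3 minus day 0 (y axis, with SE) of miRNAs detected on all 5 arrays, grouped by family (x axis, alternating colours). Filled symbols passed at an adjusted p under 0.05, the dashed line is the median change of the 132 miRNAs (-0.79) and the solid line is 0. The let-7 members run from 1.93 to -3.12, whereas both miR-99 and both miR-125 members lie at -3.09 or below.

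Of the alternative activation list, 4 miRNAs were tested, of which 2 were called lower and 1 higher. Of the 369, 17.3% were lower and detected at day 0 and 16.3% were higher. The fourth, miR-378a-5p, was undetected at day 0 and did not pass (-1.09 ± 0.51, limma adjusted p = 0.0842). miR-511-3p, the only one detected on all 5 arrays, was lower. It comes from within the span of Mrc1, the gene of the mannose receptor CD206, at chr2:14261051-14261072. It read -1.73 and -2.23 at day 0 and -4.85, -5.73 and -5.62 at day 3 (change -3.42 ± 0.58, limma adjusted p = 0.0011), and its rank fell from 59.5 and 39.7 to 17.6, 13.0 and 17.6 (limma adjusted p = 0.0406). Its unscaled signal overlapped, with 49.2 and 11.9 units at day 0 against 33.3, 15.2 and 32.7 at day 3, and without scaling the change was 0.08. miR-511-5p was detected on day 0 replicate 1 alone, at 1.92 units, so that its lower call rests on the floor and was not read as a fall. It is still counted among the 21 named miRNAs called lower. Another member, miR-378a-3p, which interleukin 4 induces together with its host gene Ppargc1b, was higher by 1.03 ± 0.39 (limma adjusted p = 0.0378), a call lost without day 0 replicate 2 or any 1 of the day 3 arrays (0.98 to 1.11).

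The miR-17~92 cluster and its paralogs are known as targets of Myc and E2F in dividing cells. Of the 12 tested members 8 passed, all higher (beside 16.3% of the 369), with a median change of 1.84, and all 12 were detected on every day 3 array. The other 4 had changes of -0.26 to 0.84 and did not pass. miR-93-5p read -2.84 and -3.14 at day 0 and -0.65, -0.41 and -0.45 at day 3 (change 2.48 ± 0.41, limma adjusted p = 0.000987), and its rank rose from 38.9 and 20.6 to 67.2, 71.0 and 73.3 (limma adjusted p = 0.0207). Its neighbour miR-25-3p, in the same cluster at chr5:138165332-138165807 within the span of the replication gene Mcm7, read -2.0 and -1.64 against 0.05, 0.59 and 0.05 (change 2.05 ± 0.41, limma adjusted p = 0.00273). The ratio of miR-93-5p to miR-25-3p overlapped between groups, at -0.83 and -1.49 against -0.69, -1.0 and -0.49. miR-106b-5p, the other cluster member, was detected on 1 of 2 day 0 arrays and rose by 3.15 ± 0.61.

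Within the miR-17~92 cluster itself miR-20a-5p rose by 1.63 ± 0.43 (limma adjusted p = 0.00852). miR-18a-5p and miR-19a-3p were undetected on both day 0 arrays and were at least 10.9-fold and 5.28-fold higher at day 3. miR-19b-3p (1.49 ± 0.56) and miR-20b-5p (2.40 ± 0.66), of a paralogous cluster, passed but lost their call without day 0 replicate 2 (1.0 and 1.29), and miR-19b-3p also without day 3 replicate 2 or 3 (1.45 and 1.25). miR-92a-3p, which shares its seed with miR-25-3p and its cluster with miR-20a-5p, had a change of -0.07 ± 0.50 that did not pass. The log2 ratio of miR-25-3p to miR-92a-3p went from -1.99 and -2.57 to -0.13, -0.40 and 0.05, and that of miR-20a-5p to miR-92a-3p from -1.59 and -2.85 to -0.74, -0.83 and 0.0028. The groups overlapped in neither ratio.

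The miR-15/16 family, repressors of cyclins and Bcl2 that often accompany the former clusters in dividing leukocytes, was higher in 3 of its 7 tested members, beside 16.3% of the 369, with a median change of 0.40. miR-15b-5p read 0.43 and 0.12 at day 0 and 2.18, 2.78 and 2.23 at day 3 (change 2.12 ± 0.42, limma adjusted p = 0.0027), and its rank rose from 81.7 and 77.1 to 93.1, 96.9 and 95.4. miR-16-5p (1.73 ± 0.50) and miR-15a-5p (1.21 ± 0.43) passed as well, but both calls were lost without day 0 replicate 2 (1.27 and 0.96), and that of miR-15a-5p also without each of the day 3 arrays (1.13 to 1.32). The ratio of miR-15b-5p to miR-16-5p, which lie side by side at chr3:69009775-69009939, overlapped between groups (-0.21 and 0.41 against 0.20, 1.13 and 0.14). miR-16-5p also comes from a second copy on chromosome 14, which the array does not tell apart.

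**Figure D4:**
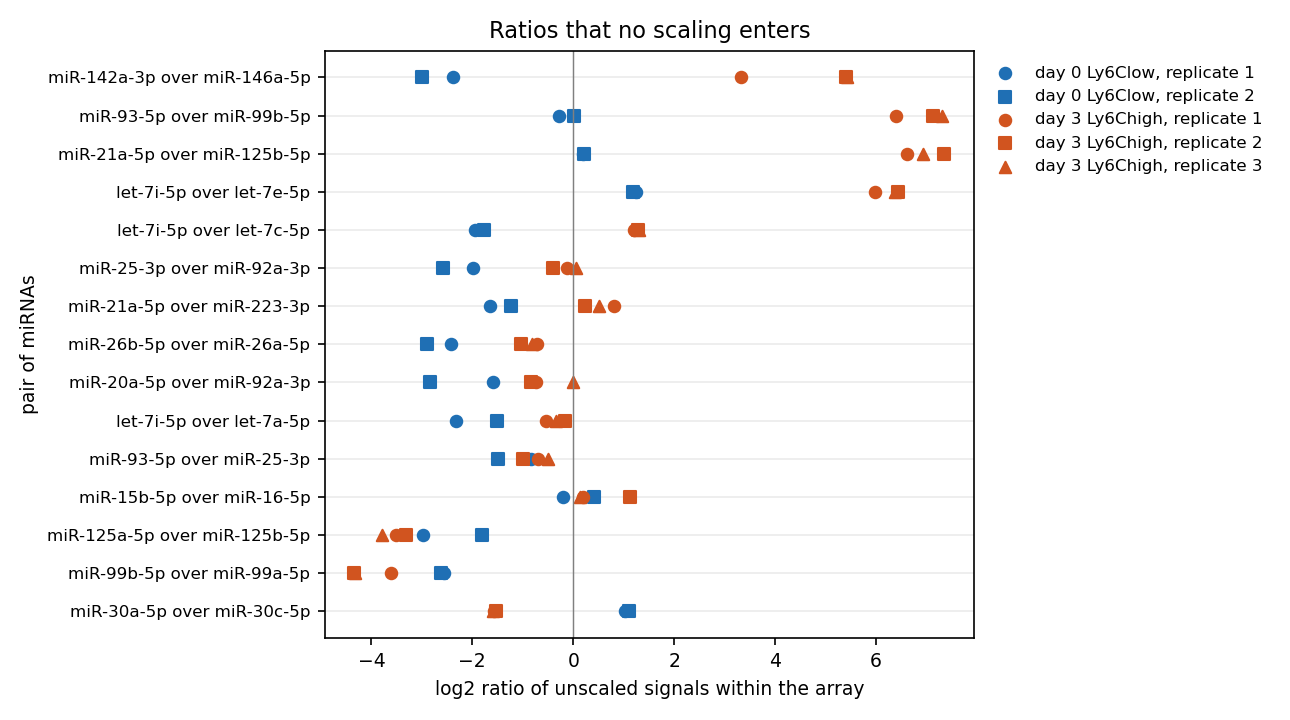
Log2 ratio of the unscaled signals of a pair of miRNAs on the same array (x axis) for 15 pairs (y axis), ordered by the shift at day 3. Blue symbols are the 2 day 0 arrays and orange the 3 day 3 arrays. The ratio of miR-142a-3p to miR-146a-5p shifts most upward (7.41) and that of miR-30a-5p to miR-30c-5p most downward (-2.62), and the groups overlap for the 2 pairs miR-15b-5p over miR-16-5p and miR-93-5p over miR-25-3p.

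The markers of the isolated lineage were present. miR-142a-3p and miR-223-3p, which mark blood cells and the myeloid lineage, were detected on all 5 arrays. miR-142a-3p read -2.08 and -3.37 at day 0 and 0.02, -0.39 and 0.66 at day 3 (change 2.82 ± 0.55, limma adjusted p = 0.00237). Its rank went from 53.4 and 15.3 to 76.3, 71.8 and 84.0, with no overlap but an adjusted p of 0.0783 (limma), and with brightness as a covariate its change was -0.17. miR-142a-5p, the other arm, was undetected at day 0 and at least 5.61-fold higher at day 3 (limma adjusted p = 0.00864), a call lost without day 0 replicate 1 (adjusted p = 0.054).

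miR-223-3p, which restrains granulocyte activation and the Nlrp3 inflammasome, was already among the brightest miRNAs at day 0. Its signal was 1132 and 212 units there and 12580, 13711 and 22697 at day 3, a change in scaled level of 1.51 ± 0.43 (limma adjusted p = 0.0112) that was lost without day 0 replicate 2 (1.08, adjusted p = 0.065). Its rank had little room to move, from 96.9 and 89.3 to 98.5 on every day 3 array. The log2 ratio of miR-21a-5p to miR-223-3p was -1.65 and -1.22 at day 0 and 0.80, 0.24 and 0.52 at day 3.

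**Figure D5:**
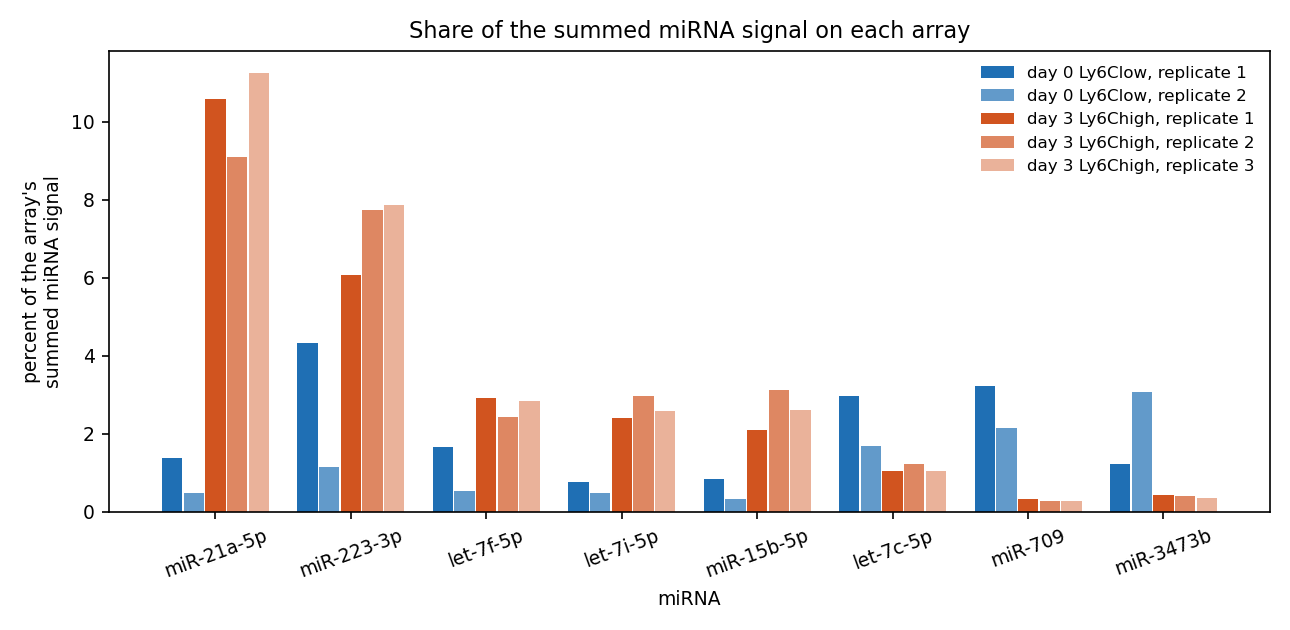
Percent of each array's summed miRNA signal (y axis) held by 8 miRNAs (x axis), 1 bar for each array, blue for day 0 and orange for day 3. miR-21a-5p takes 0.492% to 1.38% at day 0 and 9.11% to 11.3% at day 3, whereas miR-709 takes 2.14% to 3.23% and then 0.265% to 0.327%.

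miR-10a-5p, which lies within the span of Hoxb3 at chr11:96317186-96317208 and is known to restrain NF-kappaB signalling in endothelium, made the largest climb in rank. At day 0 it was among the dimmest of the 132 (ranks 10.7 and 3.8), and at day 3 it stood at 57.3, 58.8 and 56.5 (50.3 ± 3.2 points, limma adjusted p = 0.00355). Its day 0 signal was close to the detection limit. The miR-10 list, with miR-10a-5p included, summed to 6.79 to 10.3 units there, and the lowest signals called detected were 1.65 and 1.61. The rank of miR-10a-5p at day 0 is therefore that of a miRNA near the floor. The scaled level of miR-10a-5p rose from -4.60 and -4.03 to -1.93, -1.81 and -2.15 (2.35 ± 0.41, limma adjusted p = 0.00115). miR-425-5p (1.80 ± 0.42) and miR-1949 (1.98 ± 0.51) rose in scaled level as well, with rank changes of 40.3 and 24 points that did not pass (limma adjusted p = 0.0529 and 0.0792).

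Other seed families held members that parted. miR-30a-5p fell by 2.82 on the log2 scale (change -2.82 ± 0.44, limma adjusted p = 0.000672), from -1.09 and -1.97 to -4.31, -4.38 and -4.37. The log2 ratio of miR-30a-5p to miR-30c-5p, of the same seed GUAAACA, was 1.02 and 1.10 at day 0 and -1.58, -1.52 and -1.58 at day 3, with little spread within either group. miR-30d-5p changed by -0.99 ± 0.39, near the median of the array, and its call was lost without day 0 replicate 1 and without each day 3 array (-0.84 to -1.06). Both miR-30 members read as higher without scaling (0.67 and 2.5). miR-26b-5p rose by 1.66 ± 0.62 (limma adjusted p = 0.0378), a call lost without day 0 replicate 2 (0.95) and without each day 3 array (1.52 to 1.84), while its log2 ratio to miR-26a-5p went from -2.43 and -2.90 to -0.72, -1.04 and -0.81. miR-27b-3p rose by 1.45 ± 0.45 (limma adjusted p = 0.0177), which was lost without day 0 replicate 2 (1.07) or day 3 replicates 1 or 3 (1.39 and 1.37), and it was the only one of 8 tested miR-232724 miRNAs to pass as higher. miR-181b-5p was higher (1.23 ± 0.40), which was lost without day 0 replicate 2 or day 3 replicates 1 or 2 (1.0 to 1.25). miR-181a-5p was lower (-1.29 ± 0.42), which was lost without day 0 replicate 1 or day 3 replicates 2 or 3 (-0.85 to -1.24), and it read as higher without scaling (2.21). None of the 5 tested miR-29 miRNAs, repressors of collagens, was read as changed.

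More miRNAs were detected on the brighter day 3 arrays, so detection there alone was not read as a rise. Of the 103 miRNAs detected on all day 3 arrays and on no day 0 array, 48 had a bound above 1, and 25 of these passed. The others had no bound above 1. In scaled level 9 of the 103 were called lower, which were among the calls not read as falls. After miR-18a-5p the largest bounds were those of miR-130b-3p (at least 9.69-fold, limma adjusted p = 0.000353), miR-7a-5p (at least 7.79-fold) and miR-222-3p (at least 6.78-fold). miR-222-3p, a repressor of Cdkn1b and Kit, rose together with its cluster partner miR-221-3p (2.02 ± 0.48, detected on 1 of 2 day 0 arrays). miR-148a-3p (at least 5.12-fold) and miR-301a-3p (at least 3.12-fold) passed too, the latter call lost without day 0 replicate 1 and without day 3 replicate 3, at adjusted p = 0.091 and 0.051. miR-210-3p, the miRNA induced by hypoxia-inducible factor, was detected on 1 of 2 day 0 arrays and rose by 2.37 ± 0.42 (limma adjusted p = 0.00127).

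A single miRNA, miR-328-3p, was detected on both day 0 arrays and on no day 3 array. It read 4.30 and 4.15 scanner units at day 0 and 1.98, 1.86 and 1.91, below detection, on the brighter arrays of day 3. It was at least 21.4-fold lower in scaled level (limma adjusted p = 0.000273). The unscaled values lie close to the detection limit in both groups, and without scaling the change was -1.02 (log2). The call was lost with the floor at the highest detection limit (-0.68, limma adjusted p = 0.262) and with brightness as a covariate (-1.35, limma adjusted p = 0.229).

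Markers of other cells held small shares of the signal, and their part in the changes was not tested. Of the 6 cardiomyocyte miRNAs 3 were tested, and miR-208a-3p, miR-208b-3p and miR-499-5p, which define cardiomyocytes, were detected on none of the 5 arrays. The list summed to 0.0798% and 0.0854% of the signal at day 0 and to 0.0113% to 0.0205% at day 3. miR-133a-3p (-2.81 ± 0.43) and miR-133b-3p (-2.75 ± 0.44) were lower relative to the array, and higher without scaling (0.69 and 0.75). The third tested, miR-1a-3p, went the other way in detection, with no day 0 array and 2 of the 3 day 3 arrays detecting it. Its change did not pass (-1.10 ± 0.69, limma adjusted p = 0.19). The endothelial list held 0.0461% to 0.134% of the signal at day 0 and 0.140% to 0.201% at day 3. On day 0 replicate 2 the leukocyte marker miR-142a-3p held 0.0293%, less than the cardiomyocyte or the endothelial list, whereas miR-223-3p held 1.15%. On day 0 replicate 1 miR-142a-3p held 0.148%, more than either list. The endothelial miR-126a-3p read -3.95 on day 0 replicate 1, -1.26 on replicate 2 and -1.71 to -1.33 at day 3, so that the groups overlapped (change 1.10 ± 0.62, limma adjusted p = 0.15). Without day 0 replicate 2 its change was 2.44, which passed.

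The fibroblast and smooth muscle list held 0.0567% to 0.0936% of the signal at day 0 and 0.0471% to 0.0760% at day 3, and 1 of its 5 tested miRNAs, miR-199a-3p, was higher (1.29 ± 0.41), lost without day 0 replicate 2 or day 3 replicates 1 or 3 (1.15 to 1.26). Of the erythroid list, miR-451a was undetected at day 0 and at least 2.62-fold higher at day 3 (limma adjusted p = 0.03), a call lost without day 0 replicate 1 or without day 3 replicates 1 or 3 (adjusted p = 0.088 to 0.20). Its defining partner miR-144-3p was detected on none of the 5 arrays. None of the 2 lymphocyte and 5 epithelial, liver and neuron miRNAs tested was read as changed.

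Some entries of the miRNA registry are reported to be fragments of longer RNAs, and as a group they held a smaller share of the signal at day 3. The 9 tested entries of this kind, all detected on every array, held 17.0% and 24.9% of the signal at day 0 and 5.25% to 6.77% at day 3. Of them 4 were lower and none higher, beside 39.4% and 16.7% of the 132, so the lower calls are near the share of all. Without scaling, the summed signal of these 9 entries was 4451 to 4595 units at day 0 and 9609 to 15147 at day 3. Their share thus fell while their signal rose. The unscaled signal of miR-709, one of them, overlapped between groups (846 and 395 units at day 0, 677, 469 and 824 at day 3), while its rank fell from 95.4 on both day 0 arrays to 70.2, 67.9 and 67.2 (change in level -3.35 ± 0.44, limma adjusted p = 0.000273). Outside this list, miR-3473b (-2.49 ± 0.61) and miR-5107-5p (-2.77 ± 0.48) fell in both readouts, miR-3473b with a wide gap between the day 0 arrays (0.97 and 3.35) and with its level call lost without day 0 replicate 2 (-1.30). Of 17 tested miRNAs named miR-466, miR-467 or miR-669, many of which come from an intron of Sfmbt2 and some, such as miR-467f, from elsewhere, 7 were lower (beside 17.3% of the 369) and 2 higher (beside 16.3%). Of the 7 detected on all 5 arrays 6 were lower, beside 39.4% of the 132. miR-669p-3p (-3.46 ± 0.55) and miR-467f (-3.52 ± 0.60) had unscaled signals of 8.21 to 18.4 units on all 5 arrays, which overlapped between groups.

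Both slides held arrays of both groups. Within slide 1 and within slide 2 the changes were 3.28 and 3.62 for miR-21a-5p, -4.34 and -5.43 for miR-146a-5p, -3.98 and -5.02 for miR-125a-5p, -2.96 and -3.22 for let-7e-5p, -3.50 and -3.50 for miR-511-3p, 2.29 and 2.72 for miR-93-5p, 2.56 and 2.22 for miR-10a-5p, and 1.98 and 2.02 for let-7i-5p. These 8 miRNAs are among those whose groups did not overlap, so their direction could not differ between slides, and only the sizes are read. Slide 2 held 1 array of each group, replicate 2 of both. Slide 1 held day 0 replicate 1 and day 3 replicates 1 and 3. The slides differed more for miR-155-5p (2.60 and 0.33), miR-451a (2.59 and 0.18) and miR-126a-3p (2.54 and -0.45), the last of which turned.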

How the data were processed

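Per the labels, total RNA from GFP-positive cardiac macrophages was labelled with Cy3, and Agilent Feature Extraction read the images, per the submitters' processing notes, which give no version here. Per the file headers, the deposited scanner files hold a total gene signal (intensity on a linear scale), with its error, and a flag for detection of each miRNA. The authors' table holds log2 values for 317 miRNAs, in which every column has the same lowest, median and highest value, as after quantile normalization by the authors.

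For scaling, the 75th percentile of the 126 miRNAs that were detected throughout was taken on each array and the signals divided by it. Values below a floor of 0.00271 were set to the floor before conversion to log2 (-8.53). The 369 miRNAs with at least 2 detections were tested with limma 3.58.1 under R 4.3.3 with all 4 groups of the series in 1 fit, and p-values were Benjamini-Hochberg adjusted over them. A pair of day 30 arrays lay within scanner error of each other and were counted as 1 sample, which left 10 samples and 6 residual degrees of freedom. Ranks over the 132 miRNAs detected on all 5 arrays were fitted on these 5 arrays (3 residual degrees of freedom). Calls were made at an adjusted p under 0.05.

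The members, lists and tests were chosen with earlier results of these data known. Named miRNAs were, in each direction, the 12 largest level changes among called miRNAs without overlap, the 8 largest bounds and the 10 largest rank changes, up to 4 members per list, the other arm of a named miRNA, and miR-21a-5p, miR-146a-5p, miR-155-5p, miR-223-3p and miR-142a-3p. Fewer are named, in order of change. miR-30c-5p, miR-26a-5p and miR-92a-3p were added as partners in ratios after their values were seen. Alternatives covered scaling, floor, filter, slide, replicate number, brightness, the samples in the fit and leaving out each array. Precision is limited by the few arrays.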

Additional observations from a re-analysis of the deposited data

How the results depend on the processing

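The count of miRNAs called by level, 204, became 71 (45 higher, 26 lower) with the floor at the highest rather than the median detection limit, 78 (22 and 56) when only miRNAs detected on all 5 arrays were tested, 1110 (65 and 1045) with no filter, where undetected miRNAs enter with the scaled background of dim arrays, and 68 (53 and 15) with brightness as a covariate. Leaving out 1 array gave 128 to 240. The other settings stayed within 1.5 times. The count called by rank, 22, became 38 when ranked over the miRNAs detected on all arrays with all groups in the fit, and 0 to 88 leaving out 1 array.

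Replicate numbers are shared between the groups but not shown to pair the samples, since the correlation of deviations between same-numbered arrays was -0.11 for number 1 and 0.39 for number 2. With the replicate block the level count was 205 and the rank count 0, the latter fit leaving 1 residual degree of freedom.

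Over 61 named miRNAs, 1138 level changes under other settings held 42 with the sign turned. Without scaling let-7e-5p read 0.37, miR-99a-5p 0.41, miR-125b-5p 0.20, let-7c-5p 2.31, miR-100-5p 1.33, miR-511-3p 0.076, miR-30a-5p 0.67, miR-30d-5p 2.5, miR-669p-3p 0.032, miR-709 0.15, miR-5107-5p 0.72, miR-3473b 1.01, miR-133a-3p 0.69, miR-133b-3p 0.75, let-7b-5p 2.43 and miR-181a-5p 2.21. With the percentile over every miRNA on the array let-7c-5p read 1.35, miR-100-5p 0.56, miR-30d-5p 1.55, miR-3473b 0.055, let-7b-5p 1.48 and miR-181a-5p 1.25. Scaled to the dmr controls let-7c-5p read 1.79, miR-100-5p 1.09, miR-30a-5p 0.16, miR-30d-5p 1.99, miR-5107-5p 0.21, miR-3473b 0.497, miR-133a-3p 0.18, miR-133b-3p 0.23, let-7b-5p 1.92 and miR-181a-5p 1.69. These 3 scalings leave in more of the higher miRNA signal of the day 3 arrays than the percentile over detected miRNAs, as the median changes show. With brightness as a covariate let-7c-5p read 0.051, miR-3473b 0.86, miR-20b-5p -1.58, miR-19b-3p -1.1, miR-16-5p -0.62, miR-142a-3p -0.17, miR-26b-5p -1.77, miR-27b-3p -0.37 and let-7b-5p 1.9, the cause of which was not tested. Without day 0 replicate 1, miR-126a-3p read -0.24, and without day 0 replicate 2 it read 2.44 and passed.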

Other observations

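Rank called 5 miRNAs whose scaled level did not pass, all of them higher in rank. Their level changes were 0.63 for miR-677-3p, 0.13 for miR-135a-1-3p, 0.32 for miR-3081-5p, -0.36 for miR-1894-3p and -0.55 for miR-3069-3p. The last named pair thus read as lower in level, though above the median change of -0.79. miR-677-3p stood at ranks 14.5 and 11.5 at day 0 and at 38.9, 39.7 and 45.8 at day 3, and miR-135a-1-3p at 9.9 and 8.4 against 33.6, 32.1 and 32.8. miR-3081-5p, miR-1894-3p and miR-3069-3p rose by 25.6, 16.7 and 14.4 points (limma adjusted p = 0.0485, 0.0485 and 0.0406). All 5 were close to the detection limit at day 0, with signals of 3.18 to 8.23 scanner units, and read 26 to 167 units at day 3.

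Base composition differed between the calls by level. Of the 132 miRNAs detected on all 5 arrays, 107 (81.1%) had a RefSeq sequence. Their median GC content was 40.9% for the 20 called higher, 52.8% for the 38 called lower and 54.5% for the 49 not called. Across these miRNAs, which share the arrays and are not independent, Pearson's r between GC content and log2 change was -0.28 and Spearman's rho -0.34, given as a description.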
